A study of Mus musculus with 48 samples.

Results

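The last step of the reprogramming time course was followed in *Mettl14* OE cells, from day 12 to day 15 of factor induction. The 6 libraries of this step, 3 on day 15 and 3 on day 12, were taken from a series of 48 libraries in 16 groups. They were chosen by their labels and not by a measured value. Of 24010 genes in the table, 11889 reached 1 FPKM (fragments scaled for transcript length and library depth) in at least 3 of the 6 libraries and were tested.

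Both groups started from embryonic fibroblasts of mice (MEFs) that carried M2rtTA at *Rosa26*, the 4F2A cassette at *Col1a1* and an *Oct4*-GFP reporter. In these cells doxycycline switches on *Oct4*, *Sox2*, *Klf4* and c-Myc (OSKM) from that cassette. The day 15 group carried *Mettl14* OE and had received doxycycline at 1 µg/ml for 15 days, in ES medium with serum and LIF. The day 12 group carried the same *Mettl14* OE and had received the same doxycycline for 12 days. *Mettl3* OE cells and Control OE cells, which carried an empty vector, were sampled on the same 2 days with 3 libraries a group. All 6 groups therefore held the OSKM cassette and doxycycline, and no *Mettl14* OE library was free of OSKM. Whole cultures were made into single cells and their polyA RNA was sequenced in bulk, so reprogrammed and unreprogrammed cells were measured together. In such a mixture, fewer cells of a type and less RNA per cell cannot be told apart. The labels do not say whether replicates came from separate cultures, so p-values measure the spread between these libraries, which may be technical.

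METTL14 is the RNA-binding partner of METTL3 in the complex that writes N6-methyladenosine (m6A) on RNA. During reprogramming, fibroblasts lose mesenchymal genes, pass through an epithelial-like state and, in a minority of cells, switch on their own pluripotency genes. Cultures under OSKM also hold senescent and inflammatory cells, whose NF-kB and C/EBP factors drive interleukin 6, chemokines and other secreted proteins known together as the senescence-associated secretory phenotype (SASP).

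*Mettl14* itself stood at 254, 227 and 218 FPKM on day 15, against 264, 184 and 272 FPKM on day 12. Both groups lay far above *Mettl3* OE, at 4.63 ± 0.26 and 5.01 ± 0.22 FPKM on day 15 and day 12, and above Control OE, at 5.32 ± 0.49 and 5.20 ± 0.70 FPKM (SD, n = 3 each). The overexpressed gene thus checked the arm of all 6 libraries, and not their day. Its own step was a log2 change of -0.03 (SE 0.12, limma adjusted p = 0.884), and the exact two-sided permutation test gave p = 0.9, where 3 against 3 libraries allow no p below 0.1. *Mettl3* stood at 4.26, 3.90 and 4.67 FPKM on day 15 and at 4.23, 3.42 and 3.46 FPKM on day 12, with a log2 change of 0.17 (SE 0.10, adjusted p = 0.197).

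The number of fragments behind each library, estimated from the smallest FPKM steps, was 16.3 to 17.9 M on day 15 and 18.3 to 28.1 M on day 12. Small nucleolar and other small RNAs, which transcript length corrections inflate, took 33.3% to 37.2% of the summed FPKM on day 15 and 35.9% to 44.5% on day 12. Replicate 2 of day 12 was the deepest library, had the highest small RNA share and had the highest *Fos* of the 6. Libraries of 1 day correlated at r = 0.978 to 0.986 and libraries of different days at 0.967 to 0.980 across genes. On the first principal component of the 18 libraries of both days, which held 27.0% of the variance, the *Mettl14* OE libraries lay at 12.0 to 20.7 on day 15 and at -24.3 to -7.10 on day 12.

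511 genes were higher on day 15, 4.3% of those tested, and 20 were lower, 0.168%, at a 1.5-fold change of FPKM + 1 and a limma adjusted p of 0.05. The libraries of the 2 days did not overlap in 500 of the 511 and in 19 of the 20, beside 39.4% of all genes tested that were higher and 5.07% that were lower without overlap. All fold changes are on the log2(FPKM + 1) scale, which understates the change of genes near 1 FPKM. Most steps were small: 77 genes passed a log2 change of 1, 19 passed 1.5 and 6 passed 2. Of the genes called higher, 44 (113 of all genes tested) had reached 1 FPKM on day 15 only, so that the filter let them in through the day on which they were high, and 5 of the 20 called lower had done so on day 12 only.

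The median gene itself moved by 0.16 on the log2 scale, and every step below should be read against that shift. With the libraries scaled to a common median ratio, 238 genes were called higher and 55 lower, against the 511 and 20 on the deposited scale. All 238 were among the 511, and the 20 lower genes were all called lower again. With quantile normalization the split was 214 higher and 69 lower, with the trend on transcript length removed 189 and 69, and with small RNAs left out and the rest rescaled 130 and 118. At the adjusted p alone, without the fold threshold, 3758 genes (31.6%) were higher and 284 (2.39%) lower, and after median-ratio scaling 15.4% were higher and 14.6% lower. Counts of list members are given at the adjusted p alone, first as deposited and then after median-ratio scaling, and each should be read beside these shares of all genes. The step also depended on transcript length: its median was 0.24 in the shortest and 0.07 in the longest of 4 equal groups of genes, and genes called higher had a median length of 2292 bases, against 3372 bases for all genes tested. The slope had the same sign in every arm, with Spearman's rho across genes, which are not independent replicates, of -0.26 in *Mettl14* OE, -0.22 in *Mettl3* OE and -0.33 in Control OE, and its part in the calls below was not tested gene by gene. Without replicate 2 of day 12, 773 genes were higher and 25 lower.

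The 15 largest rises outside small RNAs were *Lyz2*, *Saa3*, *Cxcl1*, *C1qa*, *Myoc*, *Sct*, *Cxcl2*, *Dppa5a*, *C1qc*, *Isg15*, *Ccl2*, *Prl2a1*, *Tpbpa*, *Lama1* and *C1qb*, with log2 changes of 2.52 to 1.64. Most belonged to 5 groups: chemokines and acute-phase proteins, macrophage genes, interferon-stimulated genes, pluripotency genes and extraembryonic genes. Outside these groups stood *Myoc* and *Sct*. *Myoc*, a secreted glycoprotein of connective and eye tissue, read 23.3, 34.8 and 31.0 FPKM on day 15 against 6.26, 9.32 and 4.25 FPKM on day 12 (log2 change 2.05, SE 0.31, adjusted p = 0.000491). *Sct*, the hormone secretin, read 3.25, 3.44 and 4.61 FPKM on day 15 against 0, 0.62 and 0 FPKM on day 12 (log2 change 2.01, SE 0.34), and passed the filter through day 15 only.

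Chemokines rose together. These small secreted proteins draw leukocytes to a tissue, CC ligands mainly monocytes and CXC ligands with an ELR motif mainly neutrophils. All 9 CXC members tested, 7 ligands and 2 receptors, were higher (9 after median-ratio scaling), and so were 4 of the 5 CC members (4), against 31.6% of all genes. Of the CXC members, 1 had passed the filter through day 15 only, so its place in that count follows in part from the filter. The list medians were 0.69 for CXC and 1.49 for CC chemokines, beside 0.16 for all genes tested.

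*Cxcl1*, a neutrophil attractant, stood at 97.7, 85.0 and 99.7 FPKM on day 15, against 16.3, 28.0 and 19.9 FPKM on day 12, a 4.33-fold change (log2 change 2.12, SE 0.15, adjusted p = 1.16e-07). *Cxcl2*, its close relative, stood at 9.45, 12.99 and 11.97 FPKM on day 15, against 1.88, 2.76 and 2.07 FPKM on day 12 (log2 change 1.95, SE 0.12, adjusted p = 8.32e-09). The day 15 libraries of both genes lay far above those of day 12. *Ccl2*, the main monocyte attractant, stood at 152, 162 and 145 FPKM on day 15, against 41.7, 53.5 and 39.1 FPKM on day 12 (log2 change 1.76, SE 0.15, adjusted p = 5.77e-07). *Ccl7*, encoded beside *Ccl2*, stood at 72.8, 67.6 and 66.9 FPKM on day 15, against 19.2, 32.0 and 21.6 FPKM on day 12 (log2 change 1.5, SE 0.21, adjusted p = 0.000184). Replicate 2 was the highest day 12 library for all 4 genes and still lay below every day 15 library. *Ccl20*, which attracts cells that carry CCR6, stood at 4.01, 3.04 and 3.797 FPKM on day 15, against 0.55, 0.76 and 0.60 FPKM on day 12 (log2 change 1.49, SE 0.14). *Ccl20* passed the filter through day 15 only, so its place among the 4 CC genes follows in part from the filter. Smaller rises were those of *Cxcl5* (log2 change 1.12), *Ccl27a* (0.75), *Cxcl14* (0.69) and *Cxcl12* (0.67), the ligand of CXCR4. *Cxcl5* did not pass in the fit of the 6 libraries alone (adjusted p = 0.0997), and *Cxcl14* did not after quantile normalization (0.0618) or with small RNAs left out (0.111), where 6 of the 9 CXC members were higher. The CC gene that missed the test was *Ccl8*, at 8.25, 3.03 and 1.63 FPKM on day 15, against 2.16, 1.17 and 1.83 FPKM on day 12.

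*Il6*, the interleukin that signals through STAT3, stood at 4.64, 8.44 and 6.62 FPKM on day 15, against 1.28, 2.34 and 1.26 FPKM on day 12 (log2 change 1.52, SE 0.17, adjusted p = 2.09e-05). All day 15 libraries lay above all day 12 libraries, and the exact permutation test gave p = 0.1 for *Il6*, *Cxcl1*, *Cxcl2*, *Ccl2* and *Ccl7* alike, the smallest it can give. In the IL-6 family and its STAT3 pathway 9 of 20 members were higher (6 after scaling) and none lower, with a median of 0.23, but 3 were higher after quantile normalization, and 3 higher and 1 lower with small RNAs left out. Of the 20, 1 had passed the filter through day 15 only. The ligand *Lif* stood at 3.26, 4.95 and 4.42 FPKM on day 15, against 1.49, 1.86 and 1.31 FPKM on day 12 (log2 change 1.02, adjusted p = 1.22e-05). *Bcl3*, an NF-kB cofactor that STAT3 induces, rose by a log2 change of 0.72, and the shared receptor chain *Il6st* by 0.50, which did not pass after quantile normalization (adjusted p = 0.186) or with small RNAs left out (0.171). The feedback inhibitor *Socs3* did not pass, at 30.6, 31.2 and 26.0 FPKM on day 15 and 25.2, 35.03 and 23.2 FPKM on day 12.

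**Figure D1:**
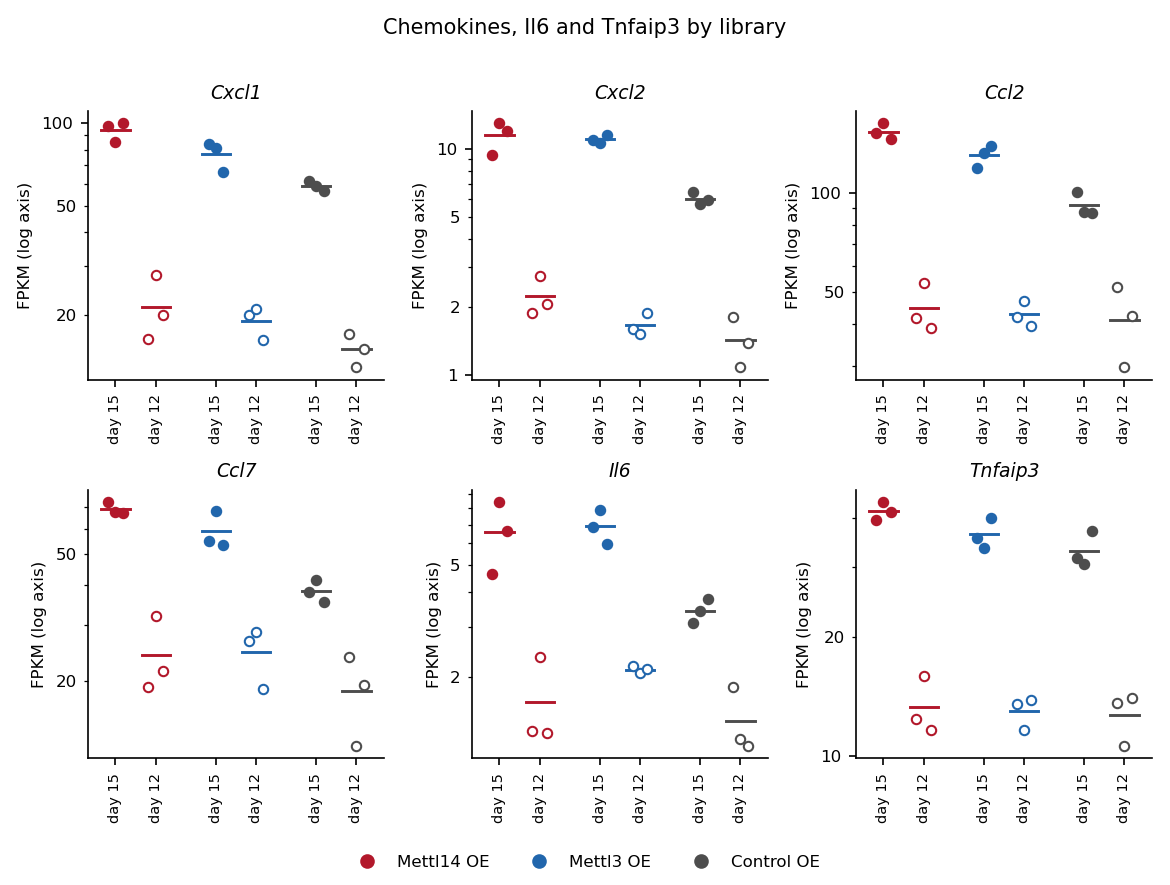
FPKM of 6 genes in each library on a log axis, in *Mettl14* OE, *Mettl3* OE and Control OE cells, with day 15 as filled and day 12 as open points and a line at the mean of 3. *Cxcl1* lay at 85.0 to 99.7 FPKM on day 15 and at 16.3 to 28.0 FPKM on day 12 in *Mettl14* OE, and the day 15 points lay above the day 12 points in all 3 arms.

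NF-kB, a dimer of REL proteins held in the cytoplasm by IκB inhibitors, is the factor that chemokine promoters are best known for. Of 30 of its subunits, inhibitors and targets tested, 27 were higher (25) and none lower, with a median of 0.71, and 20 passed the fold threshold too. With small RNAs left out 19 of the 30 were higher and none lower. All 7 inhibitors were higher (7), with a median of 0.85, and all 5 subunits (4), with a median of 0.42. *Tnfaip3*, the A20 enzyme that switches the pathway off, stood at 39.6, 44.0 and 41.4 FPKM on day 15, against 12.4, 15.9 and 11.7 FPKM on day 12 (log2 change 1.58, SE 0.12, adjusted p = 6.03e-08). *Nfkbia*, the inhibitor IκBα, stood at 166, 180 and 160 FPKM on day 15, against 83.3, 94.4 and 78.6 FPKM on day 12 (log2 change 0.97, SE 0.10). Neither inhibitor had overlapping libraries. Among subunits, *Relb* rose by 0.71 (SE 0.08) and *Rela* by 0.40 (SE 0.10) on the log2 scale, and *Rela* did not pass after quantile normalization (adjusted p = 0.0741) or with small RNAs left out (0.298). Among targets, the factor *Irf1* rose by 1.44 (SE 0.10) and the cytokine *Tnf* by 1.17 (SE 0.14). *Mmp13* missed the test, at 9.08, 14.8 and 6.73 FPKM on day 15, against 2.72, 8.51 and 3.23 FPKM on day 12, where replicate 2 was the highest.

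The sequence 250 bases before the start of 6 of these genes is shown because they were called higher and their RefSeq promoter entries (GRCm38.p6) hold a κB match. Capitals mark the matches to GGG, any 3 bases and TTCC, searched on either strand. Overlapping matches share a run of capitals. Each line runs 5′ to 3′ on the gene's strand.
Cxcl1, chr5:90890995-90891244 (plus strand): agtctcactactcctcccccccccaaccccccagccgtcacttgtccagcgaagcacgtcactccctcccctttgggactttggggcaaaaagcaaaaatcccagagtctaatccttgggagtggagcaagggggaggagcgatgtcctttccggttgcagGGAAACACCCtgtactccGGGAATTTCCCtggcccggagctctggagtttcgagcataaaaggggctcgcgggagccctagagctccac
Cxcl2, chr5:90903649-90903898 (plus strand): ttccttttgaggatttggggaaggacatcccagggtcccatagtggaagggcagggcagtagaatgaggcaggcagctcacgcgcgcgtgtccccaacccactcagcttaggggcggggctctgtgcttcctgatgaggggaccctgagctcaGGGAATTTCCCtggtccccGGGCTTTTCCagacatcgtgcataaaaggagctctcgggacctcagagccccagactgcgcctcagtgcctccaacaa
Ccl20, chr1:83116516-83116765 (plus strand): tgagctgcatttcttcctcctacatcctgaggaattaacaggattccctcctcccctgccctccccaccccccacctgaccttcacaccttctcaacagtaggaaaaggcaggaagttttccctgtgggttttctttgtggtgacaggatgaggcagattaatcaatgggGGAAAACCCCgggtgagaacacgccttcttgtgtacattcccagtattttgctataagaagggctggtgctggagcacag
Il6, chr5:30012864-30013113 (plus strand): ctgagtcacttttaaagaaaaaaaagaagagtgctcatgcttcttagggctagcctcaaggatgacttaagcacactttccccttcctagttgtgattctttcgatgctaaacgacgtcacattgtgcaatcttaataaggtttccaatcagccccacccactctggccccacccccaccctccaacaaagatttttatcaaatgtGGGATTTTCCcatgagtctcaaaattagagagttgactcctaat
Nfkbia, chr12:55492648-55492897 (minus strand): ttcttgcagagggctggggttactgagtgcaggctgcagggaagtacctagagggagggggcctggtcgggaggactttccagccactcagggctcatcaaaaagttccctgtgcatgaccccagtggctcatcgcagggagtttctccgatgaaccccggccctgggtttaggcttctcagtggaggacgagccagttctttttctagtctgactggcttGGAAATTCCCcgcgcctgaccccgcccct
Tnip1, chr11:54962941-54963190 (minus strand): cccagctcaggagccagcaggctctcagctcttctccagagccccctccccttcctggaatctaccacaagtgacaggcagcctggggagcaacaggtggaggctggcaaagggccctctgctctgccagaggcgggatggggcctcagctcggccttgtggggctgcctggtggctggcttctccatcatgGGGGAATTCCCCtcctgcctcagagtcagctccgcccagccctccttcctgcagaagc

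The run GGGAATTTCCC stood 71 to 61 bases before the *Cxcl1* start and 97 to 87 bases before the *Cxcl2* start. In *Il6* the match lay 44 to 35 bases before the start. *Tnip1*, whose protein binds A20, stood at 41.2, 40.8 and 35.5 FPKM on day 15, against 24.6, 27.5 and 24.1 FPKM on day 12 (log2 change 0.61, SE 0.09). The same letters were present in 4.65% of all 32851 promoter windows, in 6.31% of the 8983 tested genes with an entry, in 11.2% of the 366 genes called higher with one, and in 7 of 23 members of the NF-kB list. These shares are a description of letters and not of factor binding.

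Acute-phase proteins are secreted in inflammation, mostly by liver, and are under IL-6, IL-1 and C/EBP control. Of 7 tested, 6 were higher (6), with a median of 1.22, and 5 with small RNAs left out. *Saa3*, a serum amyloid made outside the liver, stood at 20.2, 29.9 and 11.9 FPKM on day 15, against 0.87, 4.49 and 3.59 FPKM on day 12 (log2 change 2.5, SE 0.55, adjusted p = 0.005). Its libraries spread widely within each day but did not overlap between days. *Saa1* stood at 99.8, 104 and 100 FPKM on day 15, against 42.0, 57.4 and 43.1 FPKM on day 12 (log2 change 1.09, SE 0.17). *Serpina3n* and *Serpina3g*, protease inhibitors of one gene cluster, rose by 1.27 and 0.92. *Lcn2*, an iron-siderophore binder, rose by 1.5 (adjusted p = 0.0111) but did not pass without replicate 2 of day 15 (adjusted p = 0.0514), and the complement factor C3, at 1.22, did not pass without replicate 1 (0.0608) or 2 (0.0545) of day 15. The Saa and Serpina3 genes are families of close copies, and how shared reads were divided among them was not tested.

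In the C/EBP and glucocorticoid list 13 of 15 were higher (10) and none lower, although 2 were lower after scaling, and 7 were higher and 2 lower with small RNAs left out. *Cebpb* stood at 110, 116 and 111 FPKM on day 15, against 49.7, 71.7 and 46.2 FPKM on day 12 (log2 change 1.02, SE 0.12, adjusted p = 1.19e-05). This factor binds the *Il6* promoter together with NF-kB. The metallothioneins *Mt2* and *Mt1*, which bind zinc, rose by 1.06 and 0.81, and the clock gene *Per1* by 0.82. In the IL-1 family 3 of 8 were higher (2), beside 31.6% of all genes tested. The alarmin *Il1a* stood at 2.65, 2.39 and 2.76 FPKM on day 15, against 0.70, 0.65 and 0.57 FPKM on day 12 (log2 change 1.13, SE 0.11), and it passed the filter through day 15 only. *Tslp*, an epithelial cytokine, stood at 9.45, 11.7 and 10.5 FPKM on day 15, against 4.66, 4.96 and 3.48 FPKM on day 12 (log2 change 1.11, SE 0.13). Prostaglandin genes moved less: 4 of 11 were higher (2) and 1 lower (1), beside 31.6% and 2.39% of all genes tested. With small RNAs left out 0 were higher and 1 lower. *Ptgs2*, the inducible cyclooxygenase, changed by 0.39 with an adjusted p of 0.12 after scaling.

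Macrophage genes rose from a low level. Of 15 macrophage and myeloid genes tested, among 29 in the table, 14 were higher (14) and none lower, with a median of 1.22, and 10 were higher in a fit of the 6 libraries alone. 3 of the 15 had passed the filter through day 15 only. *Lyz2*, lysozyme, showed the largest rise of the comparison, at 30.1, 16.7 and 11.2 FPKM on day 15, against 4.03, 1.14 and 2.32 FPKM on day 12 (log2 change 2.52, SE 0.38, adjusted p = 0.000531). *C1qa*, a chain of complement C1q that macrophages secrete, stood at 11.04, 6.195 and 4.71 FPKM on day 15, against 1.88, 0.37 and 0.58 FPKM on day 12 (log2 change 2.1, SE 0.34). Its partners *C1qc* and *C1qb* rose by 1.80 and 1.64 but missed the threshold in the fit of the 6 libraries, with adjusted p values of 0.0535 and 0.0563. Replicate 1 was the highest library of its day for all 3 chains and for *Lyz2*, on both days.

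The receptor *Csf1r*, which macrophages need to survive, stood at 5.89, 7.18 and 6.26 FPKM on day 15, against 2.62, 2.51 and 1.56 FPKM on day 12 (log2 change 1.22, SE 0.15, adjusted p = 3.03e-05). The signalling chain *Fcer1g*, one of the 3 genes let in through day 15, rose by 1.38 and the related adaptor *Tyrobp* by 1.28. *Tyrobp* did not pass without replicate 2 (adjusted p = 0.0604) or 3 (0.0878) of day 12 or replicate 1 of day 15 (0.0723). The defining markers *Adgre1*, which encodes F4/80, and *Ptprc*, which encodes CD45, were not tested. *Adgre1* stood at 1.30, 0.74 and 0.78 FPKM on day 15, against 0.25, 0.05 and 0.10 FPKM on day 12. *Ptprc* stood at 0.41, 0.29 and 0.30 FPKM on day 15, against 0.07, 0.01 and 0.02 FPKM on day 12. Both lay higher on day 15 in every library, at levels near or under 1 FPKM.

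The summed FPKM of 15 macrophage markers was 51.0 to 100 on day 15 and 15.0 to 26.6 on day 12, beside 10.8 to 12.3 in MEFs, whose FPKM came from a separately made table. In *Mettl3* OE the sum was 29.3 to 35.4 on day 15 and 16.6 to 17.7 on day 12, and in Control OE 43.7 to 78.3 and 16.1 to 22.7. *Lyz2*, one of the markers, had a higher mean in MEFs, at 4.84 FPKM, than on day 12 in *Mettl14* OE, at 2.49 FPKM. Macrophages also express *Cxcl2*, *Ccl2*, *Tnf*, *Il1a* and *Saa3*. In *Mettl14* OE both the macrophage sum and the cytokine genes above were higher on day 15. Between arms their order on day 15 differed. The sum was lowest in *Mettl3* OE, whereas the means of *Il6*, *Cxcl1*, *Cxcl2*, *Ccl2* and *Ccl7* were lowest in Control OE. The part of macrophages in the steps of these genes was not tested. None of the lymphocyte, mast cell and erythroid genes reached the filter. On day 15 the summed markers reached at most 0.09 FPKM for lymphoid cells, with 4 of 5 markers at 0 in all libraries, 0.06 FPKM for mast cells and 0.64 FPKM for erythroid cells, against at most 0.21, 0 and 0.63 FPKM on day 12.

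In the endothelial list 2 of 3 genes tested were higher (1) and none lower, and in the neuronal and glial list 1 of 3 was higher and none lower, but 0 and 2 after scaling. Of the endothelial markers, *Pecam1* stood at 0.59, 0.75 and 0.57 FPKM on day 15, against 0.22, 0.31 and 0.23 FPKM on day 12, while *Cdh5* and *Kdr* did not exceed 0.52 FPKM in any of the 6 libraries. The sum of 5 endothelial markers was nevertheless 14.4 to 15.6 FPKM on day 15 and 11.8 to 12.9 FPKM on day 12. On each day 4 of the 5 stayed under 1 FPKM in all libraries, so most of the sum came from a single marker. In Control OE the sum was 17.3 to 18.8 and 14.1 to 15.6 FPKM. *Flt1*, a VEGF receptor that trophoblast cells also express and that is named after its values were seen, was the 1 endothelial gene of 3 tested past the fold threshold, with a log2 change of 0.59 (SE 0.11).

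**Figure D2:**
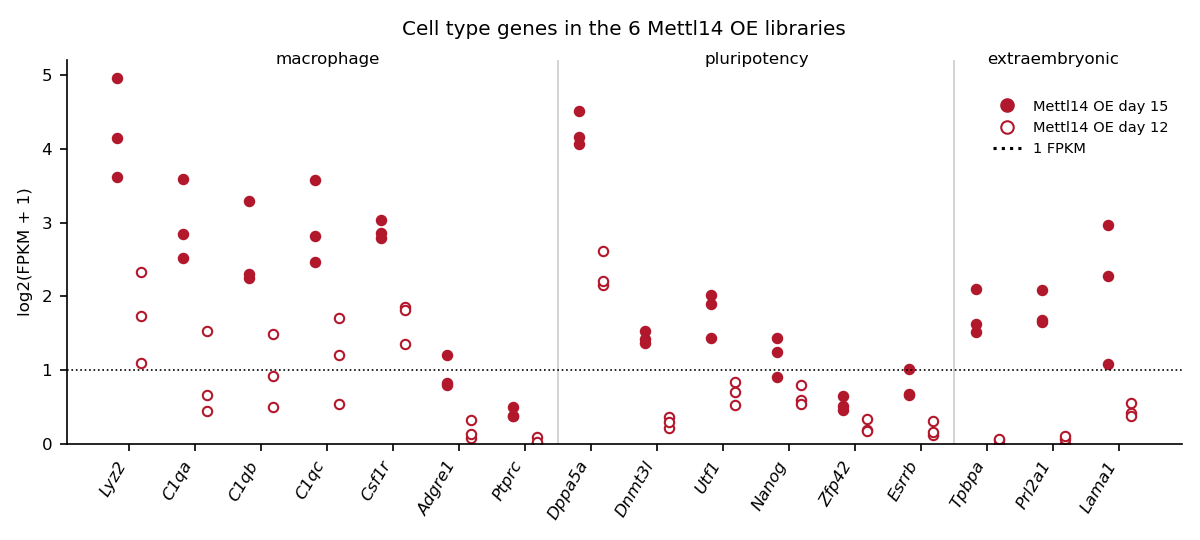
Log2(FPKM + 1) of macrophage, pluripotency and extraembryonic genes in each of the 6 *Mettl14* OE libraries, with day 15 as filled points left of day 12 as open points and a dotted line at 1 FPKM. *Lyz2*, *C1qa*, *Csf1r* and *Dppa5a* lay above the line on day 15 in all libraries, whereas *Ptprc* and *Zfp42* lay below it on both days.

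Interferon-stimulated genes, which interferons switch on and which include antiviral effectors, formed another group. Of 21 tested, 18 were higher (17), with a median of 0.68, and 4 of the 21 had passed the filter through day 15 only. With small RNAs left out 14 were higher. *Isg15*, a ubiquitin-like protein, stood at 5.87, 13.7 and 4.91 FPKM on day 15, against 1.62, 1.53 and 1.20 FPKM on day 12 (log2 change 1.78, SE 0.48, adjusted p = 0.0137). Replicate 2 of day 15 was the highest, and without it (adjusted p = 0.0641) or without replicate 3 of day 12 (0.0553) the gene did not pass. *Ifi205*, a DNA sensor family member, stood at 10.8, 12.0 and 12.2 FPKM on day 15, against 4.005, 4.87 and 3.62 FPKM on day 12 (log2 change 1.30, SE 0.11). The tether *Bst2* rose by 1.12, the oligoadenylate synthetase family members *Oasl1* and *Oas2* by 1.05 and 0.95, with *Oas2* let in through day 15 only, and the factor *Irf7* by 0.94. The promoter of *Isg15* is shown because its capitals, a single run of 3 overlapping matches to GAAA, any 2 bases and GAAA searched on either strand, lie 78 to 57 bases before the start.
Isg15, chr4:156200819-156201068 (minus strand): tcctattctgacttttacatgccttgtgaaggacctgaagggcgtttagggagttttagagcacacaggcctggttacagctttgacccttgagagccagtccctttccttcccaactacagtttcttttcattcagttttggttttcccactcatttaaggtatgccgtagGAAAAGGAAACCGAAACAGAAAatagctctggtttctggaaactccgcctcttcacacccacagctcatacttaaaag

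This motif, part of the interferon-stimulated response element, was present in 2.98% of all promoter windows, in 6.83% of the 366 genes called higher and in 6 of 16 interferon-stimulated members with an entry. MHC class I genes, which present peptides and are interferon targets, were higher in 9 of 10 (8), with a median of 0.61, but in 7 with small RNAs left out. The heavy chains *H2-K1* and *H2-D1* rose by 0.71 and 0.63 and the light chain *B2m* by 0.59. *H2-K1* stood at 48.3, 46.5 and 41.3 FPKM on day 15, against 26.2, 32.4 and 23.8 FPKM on day 12. The peptide transporters *Tap1* and *Tap2* rose by 0.75 and 0.68. Heavy chain genes are close copies, and the division of shared reads among them was not tested.

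Pluripotency genes did not move as one. Of 22 tested, 8 were higher and 1 lower, beside 31.6% and 2.39% of all genes tested, with a median of 0.27. After median-ratio scaling 8 were higher and 7 lower, and with small RNAs left out 4 and 7. *Dppa5a*, a gene of late reprogramming and embryonic stem cells, stood at 21.8, 15.8 and 16.9 FPKM on day 15, against 5.11, 3.43 and 3.63 FPKM on day 12 (log2 change 1.92, SE 0.28, adjusted p = 0.000412). *Dnmt3l*, a cofactor of de novo DNA methylation, stood at 1.90, 1.58 and 1.69 FPKM on day 15, against 0.16, 0.28 and 0.23 FPKM on day 12 (log2 change 1.16, SE 0.16). *Utf1* stood at 2.73, 1.69 and 3.05 FPKM on day 15, against 0.79, 0.44 and 0.64 FPKM on day 12 (log2 change 1.09, SE 0.19). None of these 3 had overlapping libraries, and *Dnmt3l* and *Utf1* reached 1 FPKM on day 15 only. *Sall4*, a zinc finger factor, rose by 0.67.

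The defining factors *Nanog*, *Zfp42* and *Esrrb* remained too low to be tested. *Nanog* stood at 1.72, 0.88 and 1.38 FPKM on day 15, against 0.73, 0.51 and 0.45 FPKM on day 12. *Zfp42* stood at 0.57, 0.43 and 0.38 FPKM on day 15, against 0.26, 0.14 and 0.13 FPKM on day 12. All 3 *Nanog* values of day 15 were above those of day 12. *Fgf4*, a growth factor that OCT4 and SOX2 switch on together, fell by 0.56 on the log2 scale (SE 0.11, adjusted p = 0.00102), at 2.4, 1.75 and 1.61 FPKM on day 15, against 3.52, 3.12 and 3.18 FPKM on day 12.

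The reprogramming factors themselves stayed high. Reads of *Pou5f1*, *Sox2*, *Klf4* and *Myc* can come from the cassette as well as from the cells' own genes, and FPKM does not tell them apart. *Pou5f1* stood at 169, 179 and 155 FPKM on day 15, against 175, 186 and 180 FPKM on day 12 (log2 change -0.10, SE 0.08, adjusted p = 0.323). None of the 4 passed the test, with a median of -0.10, but against the moving median gene all 4 were lower after median-ratio scaling, with adjusted p values of 0.00352 for *Pou5f1*, 0.0124 for *Sox2*, 0.00407 for *Klf4* and 0.0251 for *Myc*.

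Among genes of the extraembryonic lineages, *Tpbpa* and *Prl2a1* showed the largest rises. *Tpbpa*, a spongiotrophoblast gene, stood at 1.87, 2.098 and 3.30 FPKM on day 15, against 0.04, 0 and 0.04 FPKM on day 12 (log2 change 1.71, SE 0.19). *Prl2a1*, a placental prolactin family member, stood at 2.16, 2.21 and 3.23 FPKM on day 15, against 0, 0.05 and 0.08 FPKM on day 12 (log2 change 1.75, SE 0.14). Both passed the filter through day 15 alone. Of 11 trophoblast genes tested, 8 were higher (5) and none lower, although 1 was lower after scaling, with a median of 0.50. The X-linked homeobox genes *Rhox6* and *Rhox9* rose by 1.16 and 1.09, and the placental kinase *Nrk* by 0.78. *Rhox6* and *Rhox9* are close copies whose shared reads were not examined. *Cdx2*, which specifies the trophoblast, stood at 0.11, 0.38 and 0.08 FPKM on day 15 and 0.15, 0.07 and 0.05 FPKM on day 12, with overlapping libraries.

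In primitive endoderm, the layer that secretes the first basement membrane, 6 of 8 genes were higher (4), with a median of 0.45, but 3 with small RNAs left out. *Lama1*, a laminin chain, stood at 3.85, 6.79 and 1.11 FPKM on day 15, against 0.34, 0.47 and 0.30 FPKM on day 12 (log2 change 1.65, SE 0.35). It passed the filter through day 15 only and missed the test in the fit of the 6 libraries (adjusted p = 0.0943). The collagens *Col4a1* and *Col4a2*, transcribed from one shared promoter region, rose by 0.77 and 0.66. *Col4a1* stood at 80.3, 82.4 and 65.9 FPKM on day 15, against 42.8, 48.2 and 41.2 FPKM on day 12. Those collagens are also made by fibroblasts and endothelium. *Gata6*, the lineage factor, changed by 0.44 with an adjusted p of 0.0787 after scaling.

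Epithelial genes, which reprogramming cells gain early, still rose. Of 31 tested, 22 were higher (17) and none lower, although 2 were lower after scaling, and 10 were higher and 3 lower with small RNAs left out. The median was 0.44. Junction genes were higher in 15 of 16 (12). *Krt7*, a simple epithelial keratin, stood at 113, 129 and 115 FPKM on day 15, against 53.7, 58.0 and 41.9 FPKM on day 12 (log2 change 1.21, SE 0.13, adjusted p = 4.56e-06). *Krt18* stood at 130, 136 and 132 FPKM on day 15, against 65.3, 84.5 and 54.1 FPKM on day 12 (log2 change 0.98, SE 0.18). The libraries did not overlap in either keratin. The factor *Elf3* rose by 0.93, the claudins *Cldn4* and *Cldn3* of tight junctions by 0.83 and 0.73, and the desmosomal *Pkp1* by 0.69. E-cadherin, *Cdh1*, stood at 70.5, 70.1 and 65.0 FPKM on day 15, against 49.2, 51.3 and 43.0 FPKM on day 12 (log2 change 0.51, SE 0.11), and did not pass after quantile normalization (adjusted p = 0.072) or with small RNAs left out (0.0725). *Krt8*, the partner of *Krt18*, did not pass, at 451, 435 and 395 FPKM on day 15 and 341, 413 and 304 FPKM on day 12.

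Among keratinocyte genes 11 of 29 were higher (7) and 1 lower (1), beside 31.6% and 2.39% of all genes tested. With small RNAs left out 3 were higher and 1 lower. The serpin *Serpinb5* rose by 0.83, the protease inhibitor *Spink5* by 0.76, the envelope protein *Evpl* by 0.71, the protease *Klk7* by 0.70 and the crosslinking enzyme *Tgm3* by 0.66 (adjusted p = 0.0994 after quantile normalization), whereas the protease *Klk5* was lower by -0.62. *Krt14*, a keratin of basal cells, stood at 301, 369 and 278 FPKM on day 15, against 236, 193 and 202 FPKM on day 12 (log2 change 0.58, adjusted p = 0.0102), and did not pass without replicate 2 of day 15 (0.0642), after quantile normalization (0.335), with the length trend removed (0.0761) or with small RNAs left out (0.196). S100 proteins bind calcium, and several are epithelial and inflammatory. Of 11 tested, 5 were higher (3). *S100a7a*, the psoriasin relative, stood at 8.50, 7.75 and 7.93 FPKM on day 15, against 3.52, 4.65 and 3.22 FPKM on day 12 (log2 change 0.93, SE 0.13, adjusted p = 0.000105). *S100g*, which binds calcium in gut and placenta and passed the filter through day 15 only, rose by 0.72, and *S100a16* by 0.60. *S100a14*, at 0.61, lost the call in the fit of the 6 libraries (adjusted p = 0.151), after median-ratio scaling (0.0923) and without replicate 1 (0.0544) or 3 (0.132) of day 12 or replicate 1 of day 15 (0.0784).

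Fibroblast genes did not decline over this step. Of 33 fibroblast and matrix genes tested, 18 were higher (9) and none lower, although 1 was lower after median-ratio scaling, quantile normalization gave 2 higher and 2 lower and leaving out small RNAs gave 4 and 5. *Lox*, which crosslinks collagen, stood at 149, 137 and 114 FPKM on day 15, against 68.7, 85.9 and 68.5 FPKM on day 12 (log2 change 0.83, SE 0.13, adjusted p = 0.000176). *Col1a1* stood at 997, 1021 and 933 FPKM on day 15, against 659, 706 and 653 FPKM on day 12 (log2 change 0.55, SE 0.13). The other collagen I chain, *Col1a2*, rose by 0.58, fibronectin, *Fn1*, by 0.53, and the microfibril gene *Fbn1* by 0.51. These 4 matrix genes were not past the test after quantile normalization. The surface marker *Thy1* stood at 154, 144 and 119 FPKM on day 15 and at 102, 131 and 114 FPKM on day 12 (adjusted p = 0.0742). The sum of 5 fibroblast markers was 2169 to 2343 FPKM on day 15 and 1508 to 1694 FPKM on day 12. In MEFs the same sum was only 178 to 190 FPKM, so levels in MEFs may not be comparable with those of these libraries.

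Muscle contractile genes were higher in 4 of 10 (4), with none lower, although 1 was lower with small RNAs left out. Smooth muscle actin *Actg2* stood at 9.26, 10.5 and 11.4 FPKM on day 15, against 3.98, 6.19 and 5.19 FPKM on day 12 (log2 change 0.91, SE 0.16). *Acta1* rose by 0.73 and *Tagln* by 0.64, while *Acta2* did not pass (log2 change 0.18, adjusted p = 0.433). Of 20 matrix proteases and inhibitors, 9 were higher (7), but 3 with small RNAs left out. *Timp1*, which blocks metalloproteases, stood at 205, 202 and 171 FPKM on day 15, against 112, 129 and 100.3 FPKM on day 12 (log2 change 0.76, SE 0.13, adjusted p = 0.000301). Its libraries did not overlap between the days. The urokinase gene *Plau* rose by 0.63 and the gelatinase *Mmp2* by 0.50, which did not pass after quantile normalization (adjusted p = 0.208) or with small RNAs left out (0.182).

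**Figure D3:**
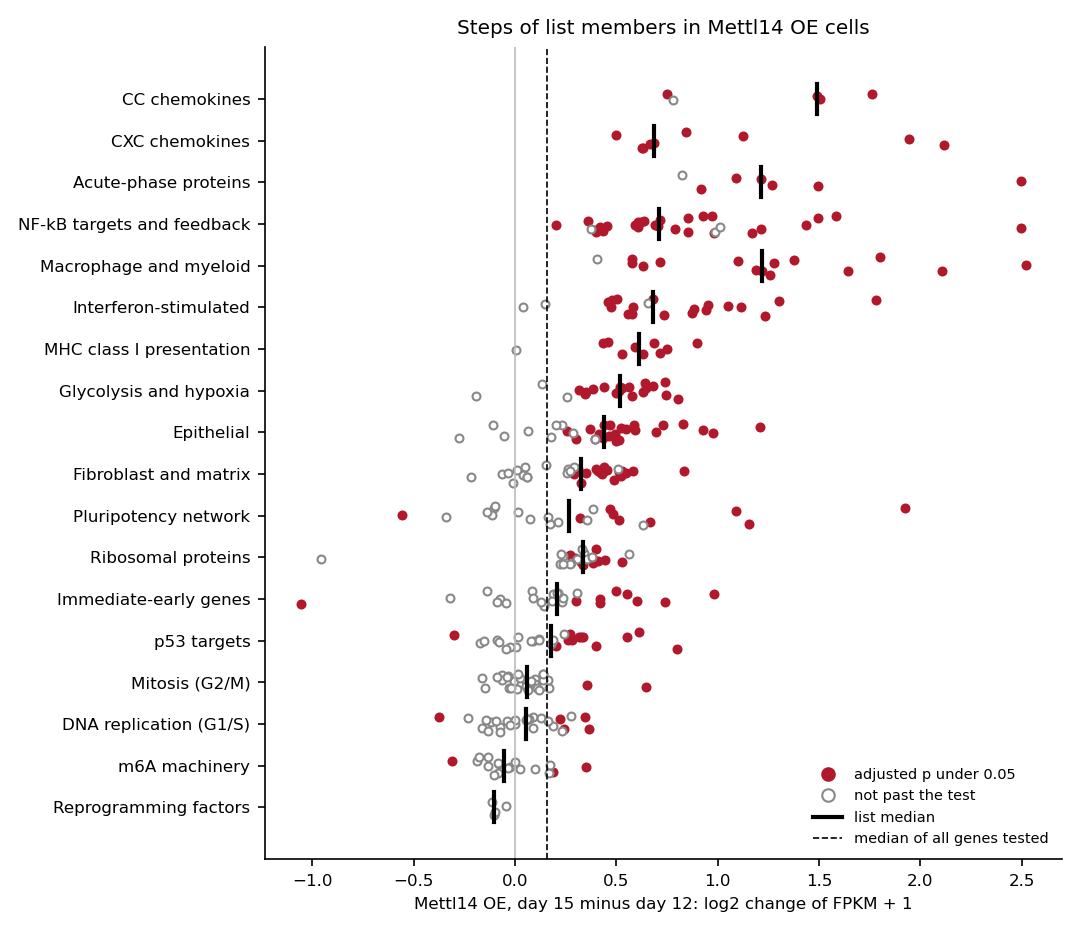
Log2 change of FPKM + 1 from day 12 to day 15 for each tested member of 18 gene lists in *Mettl14* OE cells, with genes past the adjusted p filled, list medians as bars and the median of all genes tested as a dashed line at 0.16. CC chemokines (1.49), acute-phase proteins (1.22) and macrophage genes (1.22) had the highest medians drawn, and the reprogramming factors (-0.10) and m6A machinery (-0.06) lay left of the dashed line.

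Senescence can be read from 2 sides, cell-cycle inhibitors and secreted factors. Of 14 senescence markers, 5 were higher and 1 lower, beside 31.6% and 2.39% of all genes tested, and after median-ratio scaling 2 were higher and 3 lower. With small RNAs left out 0 were higher and 4 lower. Since the list also holds genes whose loss marks senescence, its counts give no direction for senescence. *Cdkn2a*, the locus of p16 and p19ARF, stood at 99.4, 94.7 and 87.0 FPKM on day 15, against 73.8, 74.4 and 60.8 FPKM on day 12 (log2 change 0.43, SE 0.11, adjusted p = 0.00718), and did not pass without replicate 3 of day 12 (0.056), after quantile normalization (0.194), with the length trend removed (0.0833) or with small RNAs left out (0.165), with a log2 change of 0.13 to 0.14 under these 3 scalings. *Cdkn1a*, which encodes p21, stood at 174, 171 and 159 FPKM on day 15, against 152, 149 and 125 FPKM on day 12 (log2 change 0.24, adjusted p = 0.0683). *Cdkn1b* rose by 0.40 (0.0751 after scaling) and the nuclear protein *Hmgb2* by 0.48 (0.0677 with small RNAs left out). The lamin *Lmnb1*, whose loss marks senescent cells, read 10.3, 8.23 and 7.76 FPKM on day 15, against 12.3, 9.43 and 11.2 FPKM on day 12 (log2 change -0.30, adjusted p = 0.0328), and did not pass without replicate 1 (0.145) or 3 (0.105) of day 12 or without replicate 2 (0.113) or 3 (0.121) of day 15.

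Of 46 secreted senescence factors tested, 29 were higher (23) and none lower, with a median of 0.57. By class, 12 of 13 cytokines and chemokines (11), 9 of 16 proteases and regulators (8) and 8 of 17 growth factors and IGF binding proteins (4) were higher. With small RNAs left out 19 were higher and 1 lower. Of the 46, 2 had passed the filter through day 15 only. The list shares *Il6*, the chemokines and the proteases with the groups above, so its count is not separate from theirs.

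Among 27 p53 targets, 11 were higher and 1 lower, but 4 and 5 after scaling, with a median of 0.18. *Gadd45a*, a stress gene, stood at 28.1, 25.3 and 26.3 FPKM on day 15, against 14.5, 16.6 and 13.4 FPKM on day 12 (log2 change 0.80, SE 0.11). *Pmaip1*, which encodes the cell death protein NOXA, rose by 0.61. Genes of cell division stayed near the median gene or below it. Of 30 mitosis genes, 2 were higher and none lower (1 and 4 after scaling), with a median of 0.06. Of 27 DNA replication genes, 4 were higher and 1 lower (1 and 4), with a median of 0.05. With small RNAs left out 0 were higher and 9 lower in each of these lists. *Mki67*, the proliferation marker, stood at 11.9, 11.5 and 11.7 FPKM on day 15 and at 11.3, 12.4 and 12.3 FPKM on day 12 (log2 change -0.03, SE 0.07). *Uhrf1*, which maintains DNA methylation at replication, fell by 0.38 on the log2 scale (SE 0.10, adjusted p = 0.00609).

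Beside 3 small nucleolar RNAs, 17 genes were called lower, and *Fos* had the largest change among them. *Fos*, the immediate-early partner of JUN in AP-1, stood at 39.4, 38.8 and 35.1 FPKM on day 15, against 67.1, 118 and 63.3 FPKM on day 12 (log2 change -1.06, SE 0.17, adjusted p = 0.000261). Replicate 2 of day 12 was the highest library, and without it the log2 change was -0.77. Relative to the median gene the step of *Fos* was -1.21. *Id1*, an inhibitor of differentiation under BMP control, stood at 75.3, 71.8 and 68.5 FPKM on day 15, against 113, 130 and 104 FPKM on day 12 (log2 change -0.67, SE 0.11, adjusted p = 0.000267). *Hmga2*, a chromatin protein of embryonic and growing cells, stood at 40.9, 31.8 and 31.9 FPKM on day 15, against 63.1, 58.6 and 61.5 FPKM on day 12 (log2 change -0.80, SE 0.11, adjusted p = 8.25e-05). *Fos*, *Id1* and *Hmga2* passed the test in all 18 settings tried.

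*Mir17hg*, the host transcript of the miR-17-92 cluster, stood at 0.65, 0.92 and 0.93 FPKM on day 15, against 1.96, 1.89 and 1.99 FPKM on day 12 (log2 change -0.69, SE 0.09). *Mir17hg*, *Klk5*, *Gm20199*, *AU040972* and the small nucleolar RNA *Snora62* passed the filter through day 12 only. The noncoding RNA *Miat* changed by -0.66 and the histone gene *Hist2h2ac* by -0.62, and *Hist2h2ac* did not pass without replicate 2 of day 15 (adjusted p = 0.0514). The transcripts *Gm20199*, *9230105E05Rik*, *Gm13315*, *AU040972*, *Gm16907*, *G530011O06Rik*, *Gm20605* and *Gm6498* fell by 0.82 to 0.62 on the log2 scale, and *Gm6498* alone among them lost the test when a library was left out, without replicate 3 of day 12 (0.0933) or replicate 1 (0.0966) or 2 (0.0633) of day 15. Beside *Klk5*, the remaining genes called lower were *Hmgb3* and *Capn8*, both at -0.59, which are named because the count is small, and 3 small nucleolar RNAs. *Snora17* stood at 13.9, 28.9 and 16.5 FPKM on day 15, against 86.3, 95.0 and 98.1 FPKM on day 12. *Snora62* was listed at 0 in all day 15 libraries and at 14.9, 41.8 and 33.8 FPKM on day 12. *Snord110* was listed at 0, 0 and 5948 FPKM on day 15 and at 4991, 2863 and 3872 FPKM on day 12, so that its libraries overlapped. An exact 0 at such levels can be a failed estimate, and no fold is given for these RNAs.

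**Figure D4:**
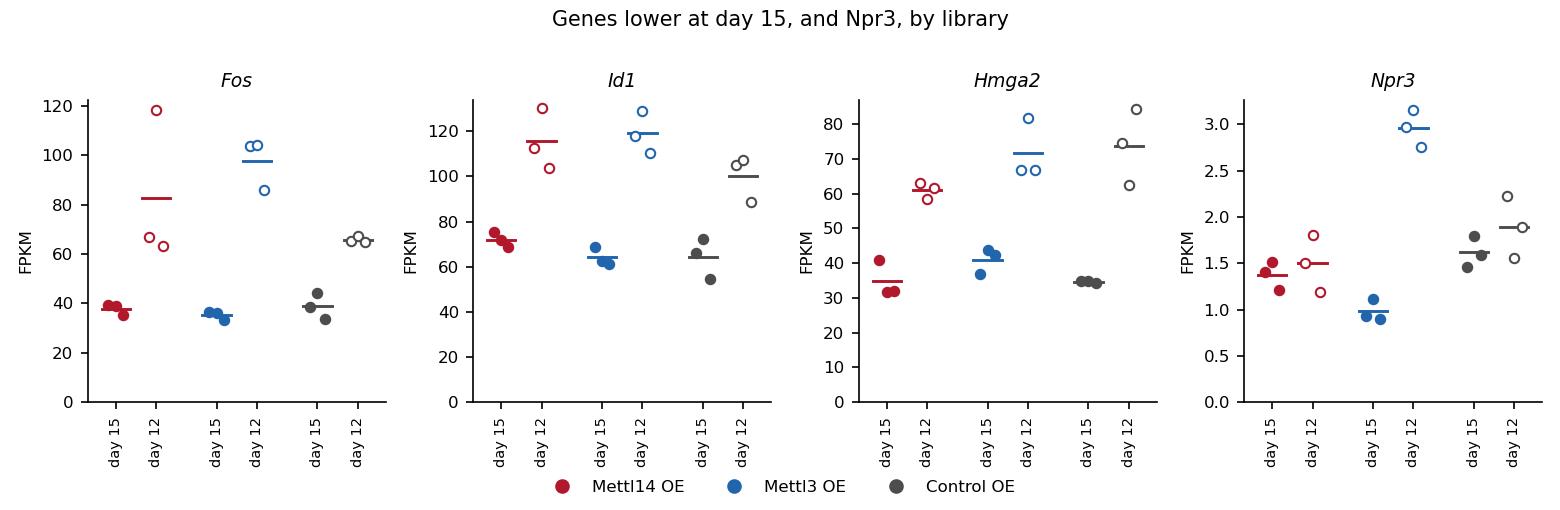
FPKM of *Fos*, *Id1*, *Hmga2* and *Npr3* in each library of *Mettl14* OE, *Mettl3* OE and Control OE cells, with day 15 as filled points left of day 12 as open points and a line at the mean of 3. *Fos* lay at 35.1 to 39.4 FPKM on day 15 and at 63.3 to 118 FPKM on day 12 in *Mettl14* OE, and *Npr3* was much lower on day 15 in *Mettl3* OE.

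The class of *Fos* stayed near the median gene on the deposited scale. Of 25 immediate-early genes, which growth factors and handling of cells switch on within minutes, 8 were higher and 1 lower. Among all genes tested 31.6% were higher and 2.39% lower, and the list median was 0.20 beside 0.16. The counts were 6 and 4 after median-ratio scaling, and 4 and 6 both after quantile normalization and with small RNAs left out. Replicate 2 of day 12 was the highest day 12 library for *Fos*, *Egr1*, *Jun* and *Dusp1*. Without it 17 were higher and 1 lower, with a median of 0.34 beside 0.17 for all genes. *Nr4a3*, an orphan nuclear receptor, stood at 4.05, 3.64 and 3.605 FPKM on day 15, against 1.60, 1.57 and 1.09 FPKM on day 12 (log2 change 0.98, SE 0.13, adjusted p = 4.95e-05). *Atf3*, a stress factor, rose by 0.74 and *Fosl1*, a late AP-1 subunit, by 0.60. *Egr1* stood at 103, 105 and 98.8 FPKM on day 15 and at 103, 133 and 91.3 FPKM on day 12 (adjusted p = 0.615), and *Jun* missed the test as well (adjusted p = 0.561).

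Beside *Id1*, a pair of other genes of BMP signalling were lower. *Id2* fell by 0.38 on the log2 scale (SE 0.10, adjusted p = 0.00733), and the ligand *Bmp2* changed by -0.38 (adjusted p = 0.0165) but did not pass without replicate 2 of day 12 (0.0826) or replicate 1 (0.0526) or 3 (0.056) of day 15. *Lefty1*, an inhibitor of Nodal, went the other way, at 3.43, 2.91 and 3.69 FPKM on day 15, against 1.58, 1.94 and 1.55 FPKM on day 12 (log2 change 0.69, SE 0.09). In all, 5 of 18 activin, Nodal and BMP genes were higher and 3 lower (2 and 5 after scaling). Of 14 Wnt genes, 6 were higher and 1 lower (3 and 3). The secreted Wnt inhibitors *Sfrp1* and *Sfrp4* rose by 0.95 and 1.07, and *Axin2*, a feedback target of Wnt signalling, fell by 0.47 on the log2 scale (SE 0.08, adjusted p = 0.000344). *Sfrp1* stood at 26.6, 27.1 and 28.2 FPKM on day 15, against 12.6, 15.0 and 13.6 FPKM on day 12. *Axin2* stood at 2.91, 3.14 and 2.91 FPKM on day 15, against 4.16, 5.12 and 4.31 FPKM on day 12, again without overlap.

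Glycolysis and hypoxia genes, many of them targets of HIF1, were higher in 18 of 21 (14) with none lower and a median of 0.52, but in 10 after quantile normalization, and in 12 with 1 lower when small RNAs were left out. *Egln3*, the HIF prolyl hydroxylase that hypoxia induces, stood at 252, 272 and 236 FPKM on day 15, against 132, 183 and 124 FPKM on day 12 (log2 change 0.81, SE 0.13, adjusted p = 0.000193). *P4ha1*, a collagen prolyl hydroxylase, rose by 0.75, *Ndrg1* by 0.74, the glycolytic enzymes *Gpi1* and *Pfkp* by 0.68 and 0.65, and the mitophagy gene *Bnip3* by 0.64. Other metabolic and housekeeping lists were called less often after scaling. Respiratory chain genes were higher in 10 of 28 (4), with a median of 0.29, and ribosomal protein genes in 11 of 24 (1), with a median of 0.33, with none lower in either. With small RNAs left out the counts were 1 and 0. Among cholesterol genes 3 of 21 were higher, with none lower (2 and 3 after scaling, 1 and 8 with small RNAs left out), and the median was 0.10. Imprinted growth genes were higher in 4 of 15, with none lower, in 0 after median-ratio scaling, and in 0 with 1 lower after quantile normalization.

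The m6A machinery moved little on the deposited scale, but many of its genes were lower against the median gene. Of 18 genes, 2 were higher and 1 lower, with a median of -0.06. After scaling 1 was higher and 9 lower, beside 15.4% and 14.6% of all genes. The counts were 0 and 9 after quantile normalization, 1 and 9 with the length trend removed and 0 and 12 with small RNAs left out. The eraser *Alkbh5* rose by 0.35 (SE 0.08) and the writer subunit *Rbm15* by 0.19 (SE 0.07), but after quantile normalization neither passed, with adjusted p values of 0.0899 and 0.824. The writer subunit *Rbm15b* changed by -0.31 (adjusted p = 0.014) and did not pass without replicate 3 of day 15 (0.0617). *Wtap*, the scaffold of the complex, stood at 13.4, 12.0 and 10.3 FPKM on day 15 and at 14.5, 12.3 and 12.53 FPKM on day 12 (adjusted p = 0.28).

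The same 3 days were then set beside the other arms, to ask which steps belonged to *Mettl14* OE. In Control OE 340 genes were called higher (2.86%) and 16 lower (0.135%), and in *Mettl3* OE 150 higher (1.26%) and 22 lower (0.185%). The median gene moved by -0.01 in *Mettl3* OE and by 0.09 in Control OE. Of the 511 genes called higher in *Mettl14* OE, 123 were called higher in *Mettl3* OE and 246 in Control OE. Their direction was up for 501 in *Mettl3* OE and 510 in Control OE, and their median step was 0.72 in *Mettl14* OE, 0.41 in *Mettl3* OE and 0.58 in Control OE. Since the 511 were chosen in *Mettl14* OE, a larger median there follows from the choice. At the adjusted p alone, 4.24% of genes were higher and 3.55% lower in *Mettl3* OE, and 15.2% higher and 2.73% lower in Control OE, against 31.6% and 2.39% in *Mettl14* OE. Counts past the test also follow the shift of each arm, so list medians are given beside them. The medians of all genes were 0.16 in *Mettl14* OE, -0.01 in *Mettl3* OE and 0.09 in Control OE. The NF-kB list had 27 of 30 genes higher in *Mettl14* OE, 16 in *Mettl3* OE and 20 in Control OE, with medians of 0.71, 0.53 and 0.495. The macrophage list had 14 of 15 higher in *Mettl14* OE, 4 in *Mettl3* OE and 12 in Control OE, with medians of 1.22, 0.63 and 1.10. Interferon-stimulated genes were higher in 18 of 21 in *Mettl14* OE, 10 in *Mettl3* OE and 17 in Control OE, with medians of 0.68, 0.63 and 0.66. Glycolysis and hypoxia genes were higher in 18 of 21, 1 and 16 in the same order of arms, with medians of 0.52, 0.07 and 0.40. Some other lists tied or had more genes higher in Control OE. In the same order of arms, CC chemokines were higher in 4, 4 and 4 of 5. MHC class I genes were higher in 9, 3 and 9 of 10. Trophoblast genes were higher in 8, 4 and 9 of 11, and imprinted growth genes in 4, 2 and 7 of 15. CXC chemokines were higher in 9, 6 and 8 of 9, with medians of 0.69, 0.66 and 1.23. These counts and medians were not tested between arms.

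**Figure D5:**
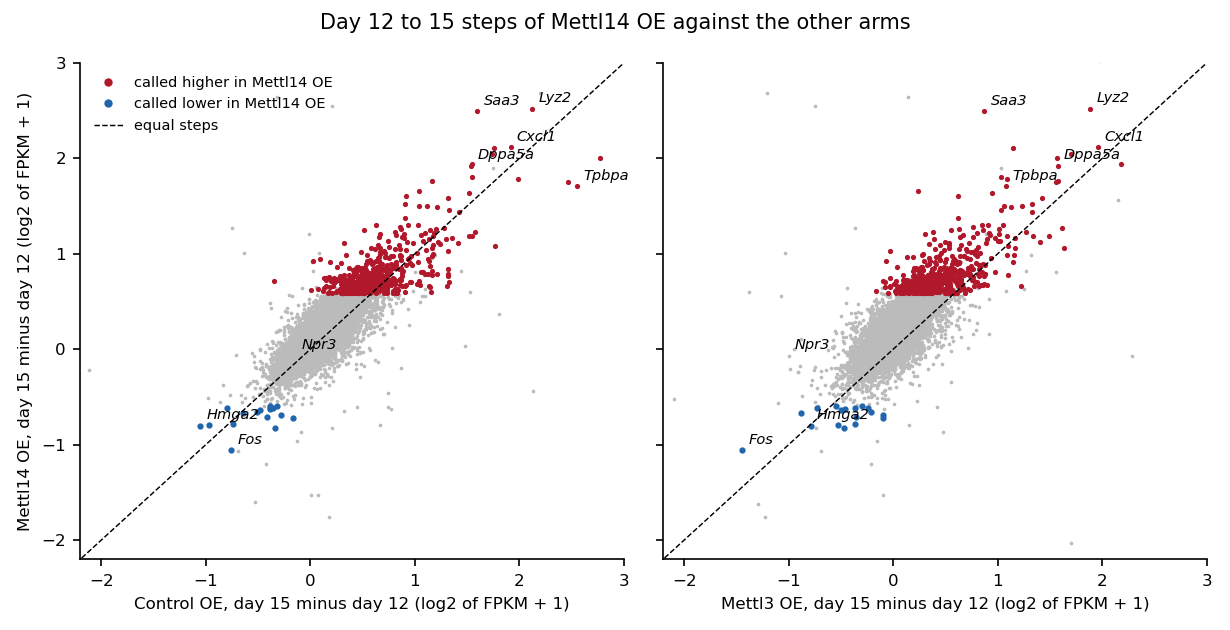
Step from day 12 to day 15 of each tested gene in *Mettl14* OE (vertical) against its step in Control OE (left) and *Mettl3* OE (right), both as log2 changes of FPKM + 1, with genes called in *Mettl14* OE coloured and the line of equal steps dashed. 18 genes outside the drawn range of -2.2 to 3, 3 of them called, are not shown, and 510 of the 511 genes called higher lie right of 0 in the Control OE panel.

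The difference of the steps, tested in the same fit, was past both thresholds for no gene against Control OE. The smallest adjusted p was 0.783. At an unadjusted p of 0.05, 453 genes had a larger and 112 a smaller step in *Mettl14* OE. Together these are fewer than such a threshold alone would admit from 11889 genes. The median difference of all genes was 0.07 on the log2 scale (median SE 0.13), so the larger steps go with a shift of the whole arm. For *Il6* the difference was 0.62 (SE 0.24), for *Ccl2* 0.60 (SE 0.21), for *Cxcl2* 0.40 (SE 0.17) and for *Cxcl1* 0.20 (SE 0.21), each with an adjusted p of 0.903 or more. In levels, *Il6* in Control OE stood at 3.10, 3.43 and 3.78 FPKM on day 15, against 1.84, 1.20 and 1.13 FPKM on day 12, so that the day 15 libraries of *Mettl14* OE were all above those of Control OE. *Mettl3* OE read 6.87, 7.87 and 5.95 FPKM of *Il6* on day 15, within the range of *Mettl14* OE. *Cxcl1* in Control OE stood at 61.6, 59.0 and 56.3 FPKM on day 15, against 17.0, 12.8 and 15.0 FPKM on day 12. For *S100a7a*, named here after its values were seen, the step differed from that of Control OE by 0.91 (SE 0.19, adjusted p = 0.783). The placental genes *Tpbpa* and *Prl2a1* differed by -0.84 (SE 0.28) and -0.72 (SE 0.20), with a smaller step in *Mettl14* OE, and neither passed (adjusted p = 0.903 for both).

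Against *Mettl3* OE 1 gene was called (0.00841% of those tested). *Npr3*, the clearance receptor for natriuretic peptides, stood at 1.403, 1.51 and 1.22 FPKM on day 15 in *Mettl14* OE, against 1.51, 1.81 and 1.19 FPKM on day 12. In *Mettl3* OE it stood at 0.93, 1.11 and 0.90 FPKM on day 15, against 2.97, 3.15 and 2.75 FPKM on day 12. The steps differed by 0.93 (SE 0.14, adjusted p = 0.0289), with a log2 change of -0.07 in *Mettl14* OE (adjusted p = 0.622) and of -1.0 in *Mettl3* OE. At an unadjusted p of 0.05 the step of *Mettl14* OE was larger for 2177 genes and smaller for 53. The median difference was 0.16 on the log2 scale. The count rested on single libraries: without replicate 2 of *Mettl14* OE on day 12 it was 120, without replicate 3 of *Mettl14* OE on day 15 it was 5 and without replicate 3 of *Mettl3* OE on day 12 it was 4. It was 0 without replicate 1 or 3 of *Mettl14* OE on day 12, replicate 1 or 2 of *Mettl14* OE on day 15, replicate 1 of *Mettl3* OE on day 12, or replicate 1 or 3 of *Mettl3* OE on day 15.

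For *Cxcl2* the step was larger in *Mettl3* OE by 0.23 (SE 0.17, adjusted p = 0.402), and for *Il6* it was larger in *Mettl14* OE by 0.19 (SE 0.24, adjusted p = 0.644). The step of *Dppa5a* differed by 0.35 (SE 0.40, adjusted p = 0.599). Its level in *Mettl3* OE stood at 4.64, 7.41 and 4.94 FPKM on day 15, against 0.89, 2.56 and 0.58 FPKM on day 12. These libraries lay below every *Mettl14* OE library of the same day. The mean of *Dppa5a* in Control OE was 18.8 FPKM on day 15 and 5.99 FPKM on day 12. In *Mettl14* OE the means were 18.2 and 4.06 FPKM, and the libraries of these arms overlapped on both days. The step of *Krt7*, named here after its values were seen, differed from that of *Mettl3* OE by 0.91 (SE 0.18, adjusted p = 0.115).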

How the data were processed

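PolyA RNA of bulk cultures was sequenced from stranded libraries. Per the labels, TopHat2 2.1.1 and Cufflinks 2.2.1 were used, with mm9 among the genome builds. The authors deposited FPKM per gene, already scaled for length and depth, in 48 columns, with no counts, so depth was estimated only from the smallest FPKM steps of long genes with 1 transcript. The table had 24013 lines for 24010 genes after 1 duplicated line was dropped and FPKM was added up over 4 lines with common symbols. Spreadsheet software had turned 25 symbols into dates, and those are not named here.

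Genes with at least 1 FPKM in 3 of the 6 *Mettl14* OE libraries of days 15 and 12 were kept. Values were taken as log2(FPKM + 1), and limma 3.58.1 in R 4.3.3 was fitted to the 18 libraries of both days in 6 groups with trend and robust moderation. P-values were adjusted by Benjamini and Hochberg over all 11889 genes, and differences of steps were contrasts of the same fit. Single genes also had exact two-sided permutation tests (SciPy 1.17.1). Calls needed 1.5-fold and an adjusted p of 0.05.

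Named genes were *Mettl14*, *Il6*, *Cxcl1*, *Cxcl2*, *Ccl2* and *Ccl7*, the 15 largest called rises and falls without small RNAs, up to 6 members of each list by absolute change past the adjusted p, members that define a list, and up to 6 genes a direction in each difference. The genes and the 38 lists were chosen with earlier results of these data known. Alternatives varied the libraries in the fit, scaling, pseudocount, filter, moderation and replicate block, and left out single libraries. The main fit did not pair libraries by replicate number. Promoter windows were RefSeq entries of GRCm38.p6, used without the coordinates of the files. A few named genes are not reported here.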

Additional observations from a re-analysis of the deposited data

Results flagged for a closer look

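The step of *Npr3* from day 12 to day 15 differed between *Mettl14* OE and *Mettl3* OE by 0.932 on the log2(FPKM + 1) scale (SE 0.14, limma adjusted p = 0.0289), tested as a difference of steps in 1 fit. All 3 *Mettl3* OE libraries of day 15 lay below all those of day 12, whereas the *Mettl14* OE libraries of the 2 days overlapped.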

How the results depend on the processing

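Against 511 genes higher and 20 lower, median-ratio scaling gave 238 and 55, quantile normalization 214 and 69, a pseudocount of 0.1 gave 801 and 52, a pseudocount of 0.5 gave 654 and 34, and a filter at 5 FPKM gave 362 and 11. A pair of alternatives was chosen after seeing the data: removing the trend on transcript length gave 189 and 69, and leaving out small RNAs and rescaling gave 130 and 118. Leaving out 1 *Mettl14* OE library gave 348 to 773 higher and 16 to 25 lower, with 773 without replicate 2 and 348 without replicate 3 of day 12. The cause of these shifts was not tested.

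The difference of steps against Control OE had 0 genes called, 2 with small RNAs left out and 0 to 1 when a library was left out, with the 1 without replicate 3 of *Mettl14* OE on day 15. Against *Mettl3* OE the count of 1 became 6 in a fit of all 48 libraries, 0 with quantile normalization, 2 without a filter, 0 with a filter at 5 FPKM, 0 with the length trend removed, 4 with small RNAs left out, and 0 to 120 when a library was left out.

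With the replicate number as a block, 512 genes were higher and 22 lower, and 65 genes differed from *Mettl3* OE. The deviations of same-numbered *Mettl14* OE libraries correlated at 0.04, -0.03 and 0.12, and those of other-numbered ones at -0.157 to 0.096. In *Mettl3* OE the same-numbered libraries correlated at 0.218, -0.076 and -0.069. With 3 libraries a group, these values cannot decide whether the number pairs libraries.

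Of 198 named genes tested, 174 passed the adjusted p, 109 of these in every setting in which they were tested (at most 18, since the filter at 5 FPKM left out low genes), among them *Il6*, *Cxcl1*, *Cxcl2*, *Ccl2*, *Ccl7* and *Ccl20*, and 65 lost it in at least 1 setting. The direction reversed for *Il1r1* (-0.0245) and *Rbm15* (-0.0863) with small RNAs left out, and for *Pcna* (-0.20 with quantile normalization, -0.19 with the length trend removed, -0.24 with small RNAs left out). No count per gene was used, so precision at low FPKM was known only from the spread of 3 libraries.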
